A study of Mus musculus with 8 samples.

Results

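The 8 genes described here, Hmgcs1, Idi1, Fdps, Fdft1, Sqle, Lss, Cyp51 and Srebf2, serve the supply of cholesterol. They were chosen by symbol from 38356 genes with a summed expression value in inguinal (ING) white adipose tissue (WAT), the fat pad under the skin of the groin. Of these genes, 7 encode enzymes of cholesterol synthesis and 1, Srebf2, encodes a transcription factor. None of the 8 is itself a receptor or carrier, so genes of cholesterol uptake are described as a separate list. All 8 passed the filter that left 16014 genes for testing, a mean of at least 1 FPKM (sequenced fragments scaled to transcript length and library size) over all mice. They were above the filter at both ages, the lowest single value being 2.93 FPKM for Sqle in 1 mouse at postnatal day 98.

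Poly(A) RNA of ING WAT was sequenced from C57BL/6j mice at postnatal day 21 (PN21; m1, m49, m138 and m145) and at postnatal day 98 (PN98; m35, m106, m114 and m125). No mouse carried a transgene or received an agent according to the labels, and age was the only factor that the labels give. In the study's methods, mice ate an AIN93G diet until PN42 and then either AIN93M or a western style diet with added cholesterol until PN98, and food was restricted in the night before dissection. The labels do not give the diet of the sequenced PN98 mice, so age and the diets eaten after PN42 cannot be told apart here. In all 8 libraries, the Y-linked genes Ddx3y and Eif2s3y were listed at 18.1 to 25.9 and at 38.9 to 84.5 FPKM, whereas Xist did not exceed 0.832 FPKM. Litters are not given in the labels, so p-values measure the spread between these 8 mice. The values hold no read counts, and the depth of each library is therefore unknown.

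Cholesterol is built from acetyl-CoA in a long chain of reactions. HMG-CoA is formed first and reduced to mevalonate, isoprenoid units are joined to farnesyl diphosphate and then to squalene, and squalene is closed to lanosterol and trimmed to cholesterol. The genes of this chain are classical targets of SREBP2, the product of Srebf2, which is held in the endoplasmic reticulum by Scap and the Insig proteins when membrane sterol is high and is cut and sent to the nucleus when sterol falls. Adipocytes store a large pool of free cholesterol at the surface of the lipid droplet and take up much of it from lipoproteins.

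Promoter sequences were found for 5 of the 8 genes in a RefSeq table on build GRCm38.p6, which is the genome build of the deposited values. They are shown because several of these enzymes varied together between mice while Srebf2 did not. The 250 bases before the RefSeq start, which for Idi1, Cyp51 and Srebf2 lies inside the GENCODE gene whose coordinates are given further on, are printed 5′ to 3′ on the strand of the gene, for Hmgcs1 (chr13:119690101-119690350, plus strand), Idi1 (chr13:8885356-8885605, plus strand), Cyp51 (chr5:4104698-4104947, minus strand) and Srebf2 (chr15:82147019-82147268, plus strand). Capitals mark 3 motifs searched on both strands, namely the sterol regulatory element core TCACNCCAC that SREBP proteins are known to bind, the CCAAT box that NF-Y is known to bind, and the GC box GGGCGG that Sp1 is known to bind.
Hmgcs1: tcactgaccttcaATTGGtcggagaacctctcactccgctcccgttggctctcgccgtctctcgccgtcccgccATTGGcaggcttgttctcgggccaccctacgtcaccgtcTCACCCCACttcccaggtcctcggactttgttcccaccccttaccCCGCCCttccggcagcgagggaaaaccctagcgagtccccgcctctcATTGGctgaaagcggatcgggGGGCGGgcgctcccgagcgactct
Idi1: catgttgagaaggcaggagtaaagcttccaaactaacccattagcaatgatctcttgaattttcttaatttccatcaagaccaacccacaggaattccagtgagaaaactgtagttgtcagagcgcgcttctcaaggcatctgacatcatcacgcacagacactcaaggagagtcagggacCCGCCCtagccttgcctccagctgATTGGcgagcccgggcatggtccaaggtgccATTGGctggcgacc
Cyp51: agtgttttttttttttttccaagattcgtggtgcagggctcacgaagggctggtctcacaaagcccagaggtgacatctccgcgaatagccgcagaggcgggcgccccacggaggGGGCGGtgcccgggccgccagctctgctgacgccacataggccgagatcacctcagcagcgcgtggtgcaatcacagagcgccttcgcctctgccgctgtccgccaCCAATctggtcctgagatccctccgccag
Srebf2: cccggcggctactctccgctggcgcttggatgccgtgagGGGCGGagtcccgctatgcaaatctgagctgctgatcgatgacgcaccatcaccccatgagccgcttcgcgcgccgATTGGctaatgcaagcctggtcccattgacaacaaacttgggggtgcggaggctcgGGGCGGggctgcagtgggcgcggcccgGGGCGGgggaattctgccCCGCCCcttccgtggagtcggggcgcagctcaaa

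The sterol regulatory element core was found in 1 of the 5 promoters, that of Hmgcs1, with its first base 137 bases before the start, and in 1.05% of all 32851 promoters of the same length in the table. A CCAAT box was present in 5 of the 5 promoters and in 33.8% of all promoters. It lay 45 and 14 bases before the start in Idi1, 29 in Cyp51, 62 in Lss and 135 in Srebf2, and Hmgcs1 held 3 matches. A GC box was likewise present in 5 of the 5 promoters, 4 times in Srebf2, and in 32.7% of all promoters. The E-box CANNTG, which is not capitalised, was found in 3 of the 5 promoters and in 66.2% of all. These matches describe letters in a window of 250 bases and are not binding sites. Only exact matches were counted, so sterol elements with other letters were not sought.

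The libraries differed in ways that bear on all values. The FPKM were not centred between ages: over all 16014 genes tested, the median log2 fold change from PN21 to PN98 was -0.21, against 0.02 after each mouse was scaled to the same sum over nuclear genes and -0.02 after median of ratios scaling. The library of PN98 m35 stood apart. The summed FPKM of the lymphocyte markers was 787 in m35, which is inside the PN21 range of 350 to 852, and 15.8 to 153 in the other 3 PN98 mice. Without m35, limma called 22.1% of genes at an adjusted p under 0.05, in place of 5.35% with all mice. The defining adipocyte markers were present in every mouse and summed to 13071 to 24123 FPKM at PN21 and to 35463 to 45050 FPKM at PN98. Fewer cells of a type and less RNA per cell cannot be told apart in these bulk samples.

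No member passed the test for a difference between ages: limma on log2(summed FPKM + 1) called 0 of the 8 genes at an adjusted p under 0.05, where 5.35% of all genes were called. At an unadjusted p under 0.05, 2 of the 8, Sqle and Srebf2, were lower at PN98, where 19.1% of all genes were, and 0 were higher, where 8.19% of all genes were. By value alone, 6 of the 8 were lower at PN98, beside 67.0% of all genes. The median log2 fold change of the 8 genes was -0.46 beside -0.21 for all genes, and -0.21 beside 0.02 after scaling to nuclear genes. Scaling to nuclear genes, median of ratios scaling and the use of protein-coding transcripts alone each called 0 of the 8 genes as well, where they called 5.25%, 7.72% and 8.8% of all genes. At an unadjusted p under 0.05 nuclear scaling left 0 of the 8 genes lower, without Sqle and Srebf2, and 1 higher, Fdft1. Median of ratios left 1 lower, Srebf2, and protein-coding transcripts 2, Sqle and Srebf2. In no member did the PN21 and PN98 values separate completely, whereas 10% of all genes were lower at PN98 in every mouse and 6.06% higher.

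**Figure D1:**
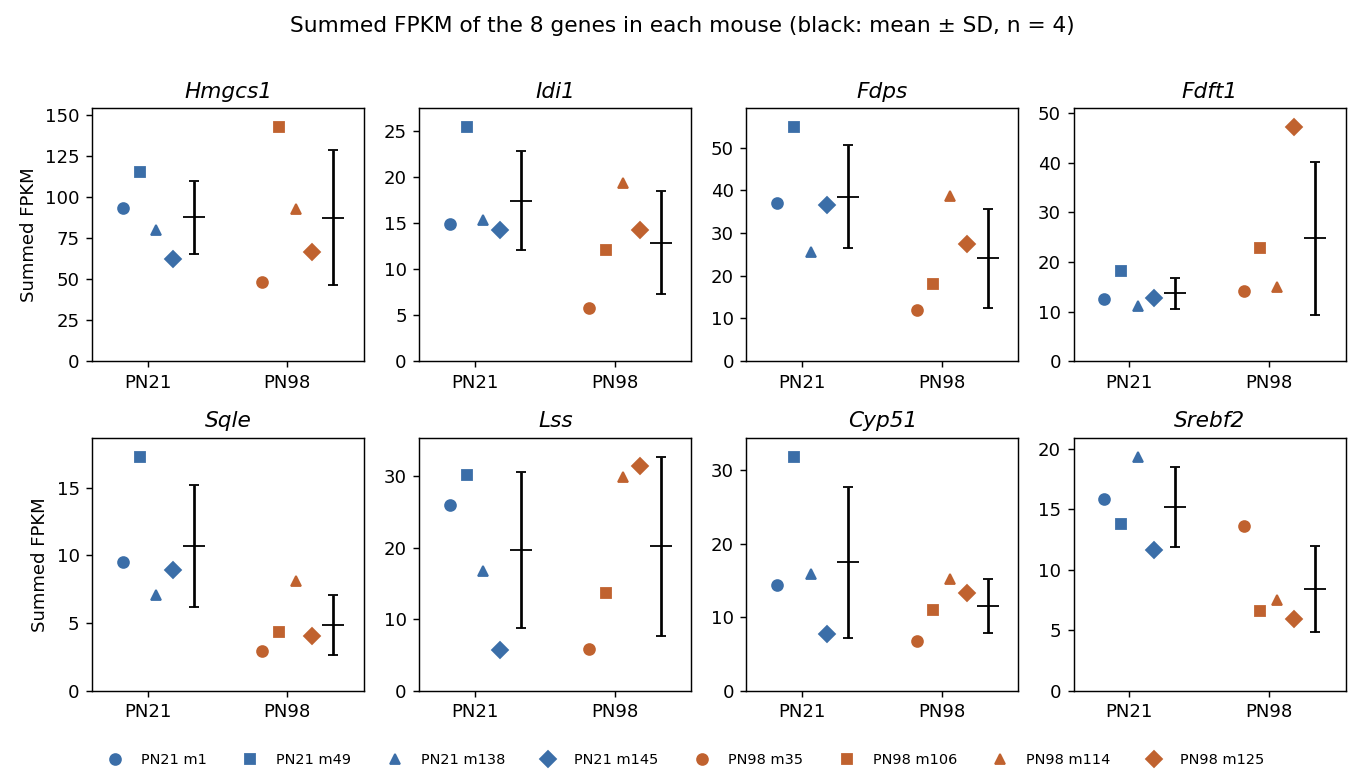
Summed FPKM (vertical axis, from 0, on a separate scale for each gene) of the 8 genes in each PN21 mouse (blue) and PN98 mouse (orange), with the mean and SD of the 4 mice per age in black. The ages overlap in all 8 genes. PN21 m49 is the highest PN21 mouse in every gene but Srebf2, and PN98 m35 is the lowest PN98 mouse in every gene but Srebf2.

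Hmgcs1 was the most abundant of the 8 genes. It encodes the enzyme that condenses acetyl-CoA with acetoacetyl-CoA to HMG-CoA and lies at chr13:119690379-119708260 (GRCm38, plus strand). It was listed at 93.1, 115, 79.9 and 62.0 FPKM in PN21 m1, m49, m138 and m145, and at 48.1, 143, 92.4 and 66.3 FPKM in PN98 m35, m106, m114 and m125. The lowest and the highest value both came from PN98 mice, and the means were nearly the same, 87.6 ± 22.4 at PN21 and 87.3 ± 41.1 FPKM at PN98 (SD, n = 4 each). The log2 fold change was -0.08 ± 0.34 (SE; limma, adjusted p = 0.893), with a 95% confidence interval from -0.87 to 0.71. Its sign turned under scaling, to 0.18 with nuclear genes and 0.15 with median of ratios, and was also positive, 0.16, without m35.

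Idi1 and Fdps act in the next stretch of the pathway, in which isopentenyl diphosphate is isomerised and isoprenoid units are joined to farnesyl diphosphate. Idi1 (chr13:8885501-8892451, plus strand) was listed at 14.9, 25.5, 15.3 and 14.2 FPKM in PN21 m1, m49, m138 and m145, and at 5.79, 12.1, 19.4 and 14.3 FPKM in PN98 m35, m106, m114 and m125. Mouse m49 was the highest of all mice and m35 the lowest, while the remaining values of the ages overlapped. Its log2 fold change was -0.48 ± 0.35 (SE; limma, adjusted p = 0.391). Without m35 it was -0.17, above the median of all genes in the same fit, -0.27. Fdps (chr3:89093588-89101959, minus strand) was listed at 37.1, 54.8, 25.5 and 36.7 FPKM at PN21 and at 12, 18.2, 38.7 and 27.5 FPKM at PN98, in the same order of mice. Mice m35 and m106 were below every PN21 mouse, and m114 was above 3 of the 4. The log2 fold change of Fdps was -0.73 ± 0.37 (SE; limma, adjusted p = 0.233), and -0.45 without m35.

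Fdft1, squalene synthase, catalyses the first step that is committed to sterols, and it had the highest fold change of the 8 genes. It lies at chr14:63145150-63179578 (minus strand), and a deposited row that names it also names Ctsb, so the split of reads between these genes is uncertain. Deposited rows that name Fdps, Lss and Srebf2 also name other genes, so the same holds for them. Fdft1 was listed at 12.6, 18.1, 11 and 12.8 FPKM in PN21 m1, m49, m138 and m145, and at 14.2, 22.9, 14.9 and 47.2 FPKM in PN98 m35, m106, m114 and m125. Mice m106 and m125 were above every PN21 mouse, with m125 far above every other mouse. The means were 13.6 ± 3.09 at PN21 and 24.8 ± 15.5 FPKM at PN98 (SD, n = 4 each). Its log2 fold change of 0.67 ± 0.37 (SE) did not pass the test (limma, adjusted p = 0.265, with a 95% confidence interval from -0.18 to 1.52), and it was 0.93 after scaling to nuclear genes (adjusted p = 0.219). The summed FPKM of 6 sebaceous gland markers was 60.5 in m106 and 58.8 in m125, against 4.39 and 8.23 in m35 and m114 and 5.33 to 13.6 at PN21, but Elovl3, which is also listed as a brown adipocyte marker, made up 55.9 and 54.1 FPKM of these sums. The other markers that passed the filter were Krt79 and Mc5r. Krt79 did not share this pattern, at 3.21 and 2.66 FPKM in m106 and m125 beside 2.43 and 4.49 FPKM in m35 and m114. Mc5r shared it among PN98 mice only, at 0.7187 and 1.4982 FPKM in m106 and m125 beside 0.3212 and 0.4839 FPKM in m35 and m114. Its values in m106 and m125 lay inside its PN21 range. Awat1 was at 0 in at least 1 mouse, and limma called 0 of the 3 sebaceous gland markers tested (0 at an unadjusted p under 0.05). The summed FPKM of 7 brown adipocyte markers, Elovl3 among them, split the PN98 mice in the same way. It was 2414 in m106 and 4228 in m125, against 371 in m35 and 1016 in m114, and 3038 to 6459 at PN21. The part of either cell type in the value of Fdft1 was not tested.

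Sqle, squalene epoxidase, which adds the oxygen to squalene and is a known rate-limiting enzyme of the pathway, had the lowest PN98 mean relative to PN21. It lies at chr15:59315077-59331192 (plus strand) and was listed at 9.53, 17.3, 7.09 and 8.89 FPKM in PN21 m1, m49, m138 and m145, and at 2.93, 4.34, 8.08 and 4.06 FPKM in PN98 m35, m106, m114 and m125. Of the PN98 mice, 3 were below every PN21 mouse, whereas m114 lay above the lowest PN21 mouse. The mean was 10.7 ± 4.52 at PN21 and 4.85 ± 2.24 FPKM at PN98 (SD, n = 4 each), a ratio of 0.453. The log2 fold change was -1.0 ± 0.33 (SE; limma, unadjusted p = 0.0152, adjusted p = 0.110), with a 95% confidence interval from -1.75 to -0.25. An exact permutation test (two-sided, 70 splits of the mice) gave p = 0.0571, where the smallest p it can give is 0.0286. Relative to the median of all genes the difference was -0.79.

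Lss and Cyp51 turn squalene epoxide into lanosterol and remove the first methyl group of lanosterol. Lss (chr10:76531588-76557138, plus strand) was listed at 26.0, 30.2, 16.8 and 5.67 FPKM in PN21 m1, m49, m138 and m145, and at 5.85, 13.6, 29.9 and 31.5 FPKM in PN98 m35, m106, m114 and m125. Each age held a mouse near 6 FPKM and mice near 30 FPKM, a 5.33-fold range at PN21 and a 5.39-fold range at PN98, the widest of the 8 genes at either age. The log2 fold change was 0.00 ± 0.63 (SE; limma, adjusted p = 0.999), with a 95% confidence interval from -1.45 to 1.46. A difference of up to about 1.45 in either direction on the log2 scale lay inside this interval. Cyp51 (chr5:4081145-4104746, minus strand) was listed at 14.4, 31.9, 15.9 and 7.68 FPKM at PN21 and at 6.70, 11, 15.2 and 13.3 FPKM at PN98, in the same order of mice. All PN98 values but that of m35 lay inside the PN21 range. Its log2 fold change was -0.45 ± 0.41 (SE; limma, adjusted p = 0.484).

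For Lss and Cyp51 much of the summed value came from transcripts that the annotation does not type as protein coding. Protein-coding transcripts made up 14.3% to 31.3% of the Lss sum and 42.7% to 96.2% of the Cyp51 sum across mice, against at least 97.4% in every mouse for the other 6 genes. The protein-coding transcripts of Lss were listed at 4.08, 6.98, 3.63 and 1.26 FPKM at PN21 and at 1.13, 4.26, 5.55 and 4.50 FPKM at PN98, the mice in the order used above. The lowest mouse of each age was the same as in the sum. Protein-coding Cyp51 was at 8.53, 21.6, 8.56 and 7.38 FPKM at PN21 and at 3.75, 4.69, 8.55 and 6.91 FPKM at PN98. Only 1 PN98 mouse, m114, was above the lowest PN21 mouse, and the log2 fold change of Cyp51 with protein-coding transcripts alone was -0.77 ± 0.35 (SE; limma, adjusted p = 0.173). With single transcripts tested on log2 FPKM, 0 of the 12 member transcripts that passed the filter (above 0 in all mice and a mean above 2 FPKM at either age) had an adjusted p under 0.05 in limma, beside 1.43% of all 22810 transcripts. At an unadjusted p under 0.05 there were 2, the main transcripts of Sqle and Srebf2.

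Srebf2 encodes SREBP2, the factor that raises the genes of the pathway when sterol is low, and its intron carries the microRNA Mir33. The gene lies at chr15:82147181-82205379 (plus strand). It was listed at 15.9, 13.8, 19.4 and 11.6 FPKM in PN21 m1, m49, m138 and m145, and at 13.6, 6.61, 7.46 and 5.89 FPKM in PN98 m35, m106, m114 and m125. Of the PN98 mice, 3 were below every PN21 mouse and m35 was within the PN21 range. The means were 15.2 ± 3.29 and 8.40 ± 3.55 FPKM (SD, n = 4 each), and the log2 fold change was -0.83 ± 0.27 (SE; limma, unadjusted p = 0.0148, adjusted p = 0.109), with a 95% confidence interval from -1.44 to -0.21. The two-sided exact permutation test gave p = 0.0571.

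Srebf2 was called in 2 of 17 alternative settings, without m35 and with array weights that give deviating libraries less weight (-1.02, limma adjusted p = 0.00848). Without m35 the log2 fold change of Srebf2 was -1.06 ± 0.20 (SE) and passed the test (limma, adjusted p = 0.0142), in a fit that called 17.9% of all genes as lower at PN98, and it was the single member called there. After scaling to nuclear genes the value for all mice was -0.59 (adjusted p = 0.256). Some other marker lists were also lower at PN98, and their pattern in m35 differed. The lymphocyte sum of m35 was inside the PN21 range. The Schwann cell and proliferation sums of m35, 120 and 32.6 FPKM, were below those of every PN21 mouse. All 7 lymphocyte markers tested were lower at PN98 by value, and none of these 7 was at 0 in any mouse. With all mice limma called 0 of them (3 at an unadjusted p under 0.05), and without m35 it called 7. Schwann cell markers summed to 246 to 484 FPKM at PN21 and to 78.3 to 133 FPKM at PN98, with 3 of 6 tested lower at an adjusted p under 0.05 with all mice, beside 2.97% of all genes, and none at 0 in any mouse. Proliferation markers summed to 78.9 to 132 and to 8.30 to 32.6 FPKM, with 7 of 8 lower by the same test and none at 0. The part of these cell types in the value of Srebf2 was not tested.

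**Figure D2:**
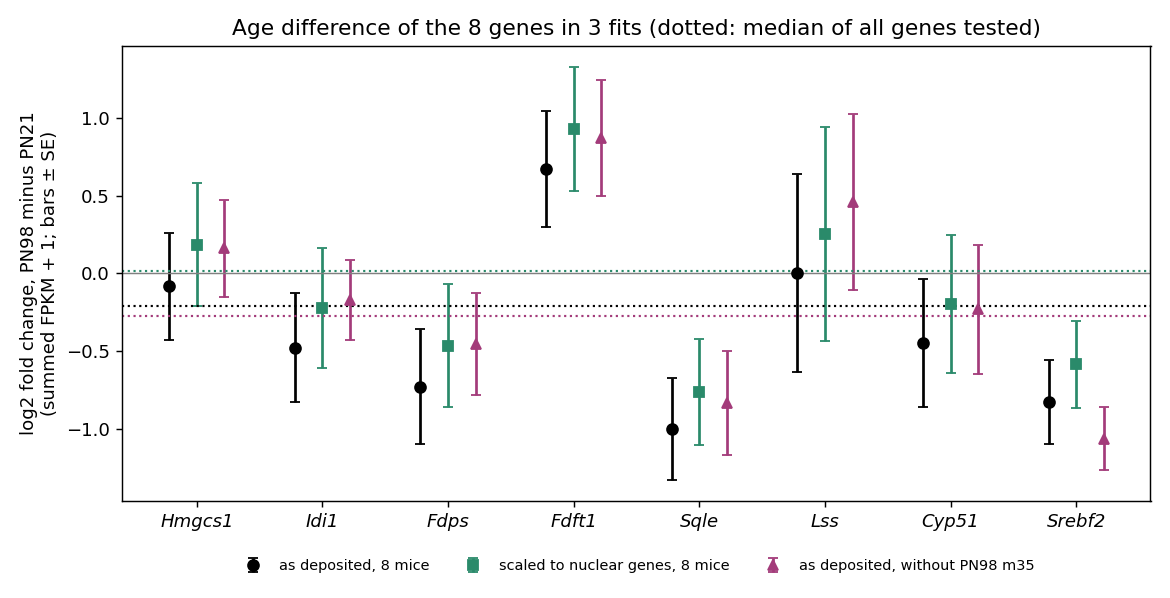
Log2 fold change from PN21 to PN98 (vertical axis, on summed FPKM + 1, bars ± SE) of each gene in 3 limma fits, with dotted lines at the median of all genes tested in the same fit. Fdft1 is the highest gene in all 3 fits, Sqle the lowest in both fits with all mice, and Srebf2 the lowest without PN98 m35.

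Summed levels are set side by side between genes here because FPKM are per length. The assignment of reads to genes and transcripts, which is uncertain for some of these genes, also enters them. The sums of Lss and Cyp51 include much that is not protein coding. Hmgcs1, at 87.4 ± 30.6 FPKM over all mice (SD, n = 8), was above the next gene, Fdps at 31.3 ± 13.4 FPKM, in 8 of 8 mice. Fdps was above Lss in 7 of 8 mice. Lss, Fdft1, Idi1 and Cyp51 followed with means of 19.9, 19.2, 15.2 and 14.5 FPKM, and their order did not hold within mice: each was above the next in 4, 3 and 5 of the 8 mice, in turn. Srebf2 at 11.8 ± 4.81 FPKM was above Sqle, the lowest sum at 7.78 ± 4.55 FPKM, in 6 of 8 mice. No pair of neighbours in this order had ranges that stood apart. The place of Lss rests on its sum over all transcripts. Protein-coding Lss averaged 3.99 FPKM at PN21 and 3.86 FPKM at PN98, below protein-coding Sqle at 10.6 and 4.81 FPKM.

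The spread between mice of the same age was in part shared by the enzymes. Among the PN21 mice, m49 had the highest value of 7 of the 7 enzymes, and the lowest came from m145 in 4 and from m138 in 3. Among the PN98 mice, m35 had the lowest value of 7 of the 7 enzymes, and the highest came from m114 in 4, from m125 in 2 and from m106 in 1. The share of all genes with the same mice at these extremes was not counted. After the mean of each age was subtracted, the log2 values of the 6 enzymes other than Fdft1 correlated positively in 15 of 15 pairs over the 8 mice, with a median Pearson r of 0.71 and a range from 0.40 to 0.91. Idi1 and Fdps had the highest r, 0.91, followed by Fdps and Sqle with 0.89 and by Lss and Cyp51 with 0.87. Fdft1 had lower correlations with these 6 enzymes, from 0.12 to 0.47, and the median over all 28 pairs of the 8 genes was 0.50. The set of 6 leaves out the enzyme with the lowest correlations in these same data, so its median and its count of positive pairs are favoured by that choice. Over all 28 pairs, 21 were positive. Srebf2 correlated negatively with all 7 enzymes, from -0.67 with Fdps to -0.24 with Cyp51. The correlations are descriptions without a p-value, since the genes were chosen with earlier results known, and all points share the scaling of their library. With nuclear scaling the 15 pairs were again positive, from 0.52 to 0.93.

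These relations rested in part on the 2 extreme mice, m49 and m35. Without them and with age means subtracted, 14 of the 15 enzyme pairs stayed positive but the median r fell to 0.45, with Hmgcs1 and Fdps at -0.10, and Lss and Cyp51 at 0.90 and Fdps and Sqle at 0.88. Without subtraction of the age means, 10 of the 15 were positive and the median was 0.15. Without the same mice, Srebf2 had 3 positive and 4 negative correlations, from -0.57 to 0.23, so the opposite direction of Srebf2 was not kept. Mouse m35 also had the lowest sum of brown adipocyte markers, 371 FPKM beside 1016 to 4228 FPKM in the other PN98 mice and 3038 to 6459 FPKM at PN21, with none of the 7 markers at 0, and the highest macrophage sum among PN98 mice, 814 beside 178 to 448 FPKM. The part of these cells in the enzyme values of m35 was not tested.

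**Figure D3:**
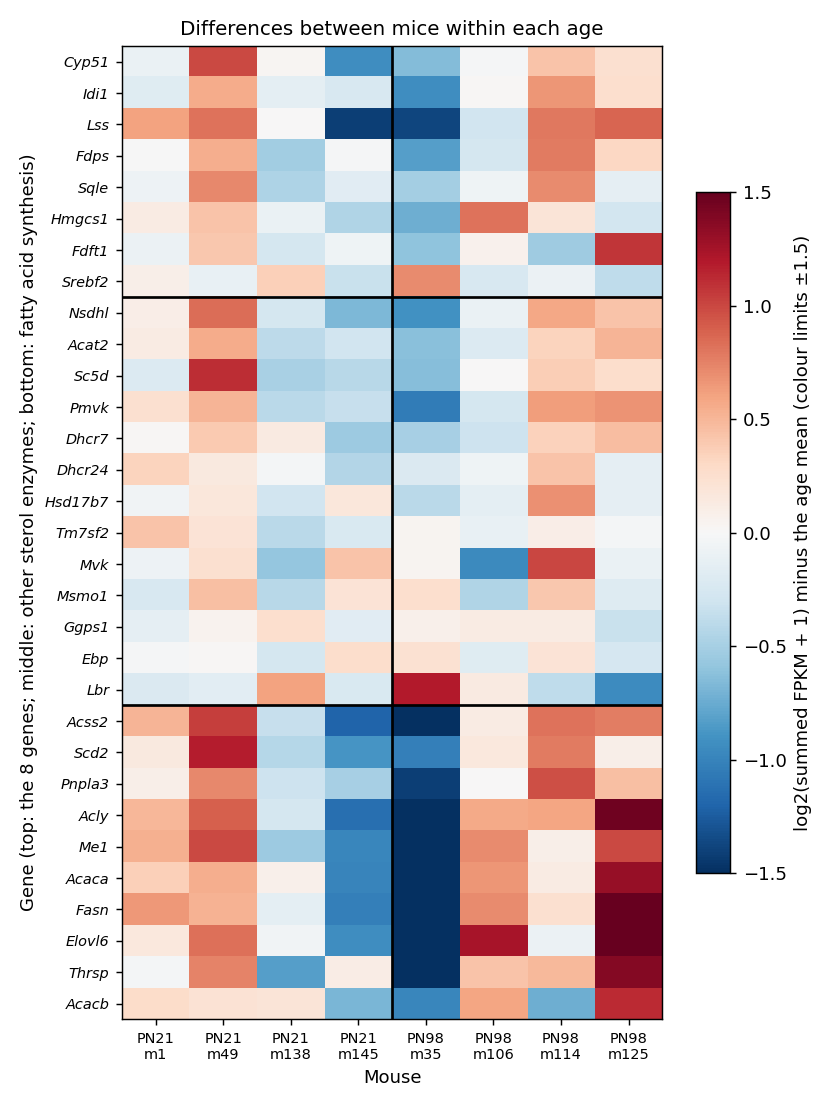
Colour shows log2(summed FPKM + 1) of each gene (rows) in each mouse (columns) after the mean of its age was subtracted, with colours limited to differences of 1.5 in either direction. From top to bottom the blocks hold the 8 genes, 13 other enzymes of sterol synthesis and 10 genes of fatty acid synthesis. In most rows of the first and last block PN21 m49 is red and PN98 m35 is blue, and Srebf2 and Lbr have the reverse colour in m35.

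None of the other enzymes of sterol synthesis passed the test for a difference between ages. Of 14 such genes listed, 13 had values and were tested, and 11 were lower and 2 higher at PN98 by value, beside 67.0% of all genes lower. In limma, 0 of the 13 had an adjusted p under 0.05, beside 5.35% of all genes, and 1, Lbr, had an unadjusted p under 0.05. Their median log2 fold change was -0.37 beside -0.21 for all genes, and -0.14 beside 0.02 after scaling to nuclear genes. The largest differences were those of Lbr, Mvk and Msmo1. Lbr, a lamin receptor of the nuclear envelope that also reduces a sterol double bond, had a log2 fold change of -1.03 ± 0.44 (SE; limma, adjusted p = 0.178), which was -1.42 without m35 (adjusted p = 0.0224). It was at 17.3 FPKM in m35 and at 3.19 to 7.89 FPKM in the other PN98 mice, as Srebf2 and the lymphocyte markers were higher in m35. Mvk, mevalonate kinase, had a log2 fold change of -0.70 ± 0.41 and Msmo1, a sterol methyl oxidase, -0.44 ± 0.27 (SE; limma, adjusted p = 0.287 and 0.300).

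Nsdhl, the dehydrogenase that follows the methyl oxidase, was named after its values were seen, since its profile was the closest of all 16014 genes to the mean profile of the 8 genes. Its log2 values had r = 0.996 with that profile after the age means were subtracted, and r = 0.98 without subtraction (8 mice). It was listed at 28.0, 47.5, 21.5 and 15.9 FPKM in PN21 m1, m49, m138 and m145, and at 10.8, 19.8, 32.1 and 28.8 FPKM in PN98 m35, m106, m114 and m125. Mouse m49 was again the highest and m35 the lowest, and without these 2 mice r was 0.99 after subtraction of the age means. By the same measure, 5 of the 13 other enzymes had an r above 0.8 to the mean profile, and the range was from -0.65 for Lbr to that of Nsdhl, beside 2.47% of all genes with an r above 0.8. Without m49 and m35 it was again 5 of the 13, beside 1.05% of all genes. Nsdhl had a log2 fold change between ages of -0.29 ± 0.42 (SE; limma, adjusted p = 0.668).

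No gene that senses sterols or processes SREBP proteins passed the test. Of the 8 listed and tested, 5 were higher and 3 lower by value, beside 67.0% of all genes lower. Their median log2 fold change was 0.17 beside -0.21 for all genes. In limma, 0 of the 8 had an adjusted p under 0.05, beside 5.35% of all genes. At an unadjusted p under 0.05, 1, Insig2, was higher, beside 8.19% of all genes. Insig2, which retains SREBP proteins in the endoplasmic reticulum, was listed at 44.7, 26.7, 31.6 and 25.4 FPKM in PN21 m1, m49, m138 and m145, and at 54.3, 67.2, 58.4 and 43.3 FPKM in PN98 m35, m106, m114 and m125. All PN98 mice except m125 were above every PN21 mouse. Insig2 had a log2 fold change of 0.80 ± 0.22 (SE; limma, adjusted p = 0.0795), and passed the test in 3 of 17 alternative settings, with median of ratios scaling (adjusted p = 0.0295), protein-coding transcripts alone (0.0256) and array weights (0.0247). Insig1, the sterol-responsive homologue, had a log2 fold change of 0.54 ± 0.51 (adjusted p = 0.504) and Nr1h3, the liver X receptor alpha, 0.39 ± 0.19 (SE; limma, adjusted p = 0.226). Insig1 followed the enzymes between mice, with r = 0.87 to the profile of the 8 genes after the age means were subtracted.

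Genes of cholesterol uptake and transport within the cell showed differences in both directions on the values as deposited. Of 12 listed, 11 were tested, and limma called 2 as higher and 1 as lower at PN98, beside 2.38% and 2.97% of all genes. At an unadjusted p under 0.05, 4 were higher and 3 lower, beside 8.19% and 19.1%. The balance depended on the scaling. Nuclear scaling called 4 as higher and 0 as lower, and median of ratios 4 and 1, where they called 5.25% and 7.72% of all genes in either direction. Vldlr, a receptor for triglyceride-rich lipoproteins, rose from 11.5 ± 1.79 to 31.8 ± 6.19 FPKM (SD, n = 4 each), a log2 fold change of 1.39 ± 0.19 (SE; limma, adjusted p = 0.00869). Its lowest PN98 value, 26.1 FPKM, was above its highest PN21 value, 13.1 FPKM. Cd36, a scavenger receptor that takes up fatty acids and modified lipoproteins, rose from 379 ± 35.6 to 833 ± 179 FPKM, a log2 fold change of 1.11 ± 0.19 (SE; limma, adjusted p = 0.0208). Stard4, which carries cholesterol between membranes and is a known target of SREBP2, fell from 4.94 ± 1.01 to 1.84 ± 0.70 FPKM, a log2 fold change of -1.08 ± 0.21 (SE; limma, adjusted p = 0.0282). It was listed at 4.42, 5.48, 6.05 and 3.80 FPKM at PN21 and at 2.85, 1.74, 1.39 and 1.37 FPKM at PN98, so that the ages did not overlap, and m35 was the highest PN98 mouse. Under scaling to nuclear genes the value of Stard4 was -0.89 and did not pass the test (adjusted p = 0.0563). Of the 3 calls on the values as deposited, that of Vldlr held without each mouse and was lost with the highest transcript per gene (0.89, adjusted p = 0.0741). The call of Cd36 was lost without each of 5 single mice (adjusted p up to 0.0704) and that of Stard4 without each of 6 (up to 0.092).

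**Figure D4:**
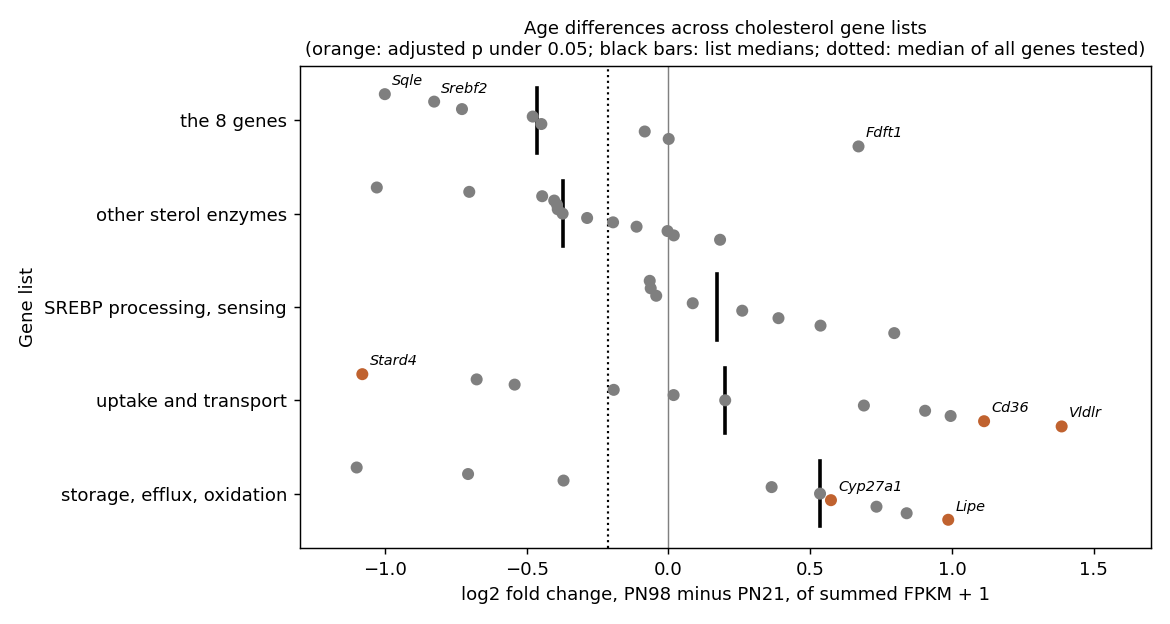
Log2 fold change from PN21 to PN98 (horizontal axis, on summed FPKM + 1) of each tested gene in the 5 cholesterol lists (rows), with orange points at an adjusted p under 0.05 in limma, black bars at list medians and a dotted line at the median of all genes, -0.21. The medians of the 8 genes and of the other sterol enzymes lie left of the dotted line, and those of the 3 lists of sensing, uptake and storage lie right of it.

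Among 9 genes of cholesterol storage, efflux and oxidation, limma called 2 as higher and 0 as lower at PN98, beside 2.38% and 2.97% of all genes. At an unadjusted p under 0.05, 4 were higher and 1 lower, beside 8.19% and 19.1%. Lipe, the hormone-sensitive lipase that also splits cholesteryl esters, rose from 376 ± 74.8 to 750.0 ± 160 FPKM (SD, n = 4 each), a log2 fold change of 0.99 ± 0.22 (SE; limma, adjusted p = 0.0418). Cyp27a1, the sterol 27-hydroxylase, rose from 17.1 ± 0.65 to 26.0 ± 1.95 FPKM, a log2 fold change of 0.57 ± 0.13 (SE; limma, adjusted p = 0.0428). Both calls were lost without each of the 7 mice other than m35. Leaving out each mouse gave an adjusted p from 0.0102 to 0.12 for Lipe and from 0.0312 to 0.123 for Cyp27a1, the lowest without m35, and Lipe was called in 7 and Cyp27a1 in 9 of 17 alternative settings. Abca1, the cholesterol exporter, had a log2 fold change of 0.84 ± 0.32 (adjusted p = 0.150) and Ch25h, the cholesterol 25-hydroxylase, -1.10 ± 0.27 (SE; limma, adjusted p = 0.0557). Ch25h passed the test in 4 of 15 alternative settings, among them the one without m35 (limma, adjusted p = 0.0192). It was lower in every PN98 mouse than in any PN21 mouse, with at most 0.87 FPKM at PN98 and at least 1.38 FPKM at PN21, and Abca1 was higher in every PN98 mouse. The adipocyte marker sums given above moved in the same direction as Lipe, Cd36 and Vldlr. Fabp4, at means of 17129 FPKM at PN21 and 32724 FPKM at PN98, made up most of these sums. Of the 8 adipocyte markers, 7 were higher and 1, Pparg, lower by value, and limma called 2 as higher. The part of adipocyte share in the values of Lipe, Cd36 and Vldlr was not tested.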

How the data were processed

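RNA of inguinal WAT from 4 PN21 and 4 PN98 C57BL/6j mice was sequenced as paired-end poly(A) libraries. Per the labels and the study's methods, the authors used CASAVA 1.8.2, FastQC, STAR 2.3.0 and Cufflinks 2.1.1 on mm10 (GRCm38) and deposited FPKM of single transcripts in each mouse, with an SD, an average and a score column. The deposited table has lost decimal marks in 40426 of its 91969 transcripts. These were restored as the reading that gives the deposited SD, average and score, which rest on 10 values, 2 of them not analysed here. In 3164 transcripts more than 1 reading fitted, and the reading that left the 2 unseen values with 6 significant digits was taken. The main transcripts of Idi1 and Sqle and some of Lss were among these. Of 30937 rows with intact decimals, 30228 fitted the deposited statistics. A further 57 transcripts were taken from the authors' second table, which lists FPKM of selected transcripts beside fold changes and p-values that were not used, and 108 stayed unresolved and were left out, none of a member. All 4972 restored transcripts in both tables were equal. Transcripts were assigned to genes with GENCODE vM21 and summed.

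limma 3.58.1 (R 4.3.3) was fitted to log2(summed FPKM + 1) of genes with a mean of at least 1, with Benjamini-Hochberg adjustment over all genes tested. On simulated data for this comparison, 157 of 200 genes changed by 2 on the log2 scale were recovered among 16014, with 11 false calls. The largest change of the 8 genes was -1.0, for Sqle, and recovery of changes of that size was not simulated. Transcripts were tested on log2 FPKM where above 0 in all mice with a mean above 2 at either age. The 8 genes and all lists were chosen with earlier results of these data known. Of the wider lists, genes were named at an adjusted p under 0.05 or among the 3 largest changes, and outside the lists the 5 with the highest r to the members' mean profile, with and without subtraction of age means. The results of 2 listed genes and of 1 gene outside the lists are not reported here. Alternatives were other scalings, pseudocounts, filters, variance models, weights, gene values and leaving out each mouse.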

Additional observations from a re-analysis of the deposited data

Results flagged for a closer look

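In 47 groups of 4 mice (the named genes at each age), 4 held 1 value whose distance to its nearest neighbour was large against the range of the group by Dixon's criterion at 95%, which chance alone exceeds in about 1 of 20 groups. Among the 8 genes this was Idi1 at PN21, where m49 was listed at 25.5 FPKM and the other mice at 14.2 to 15.3 FPKM. In the wider lists, Lbr was listed at 23.98 FPKM in PN21 m138 beside 13.0 to 13.8 FPKM, Ch25h at 3.65 FPKM in the same mouse beside 1.38 to 1.64 FPKM, and Lipe at 487 FPKM in PN21 m1 beside 326 to 349 FPKM. Mouse m138 also had the highest lymphocyte marker sum, 852 FPKM, and its part in the values of Lbr and Ch25h was not tested.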

How the results depend on the processing

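Idi1, Fdps, Sqle, Cyp51 and Srebf2 were lower and Fdft1 higher at PN98 in 17 of 17 alternative settings. The fold change of Hmgcs1 turned positive with nuclear scaling (0.18), median of ratios (0.15) and array weights (0.32), and ranged from -0.36 to 0.16 when each mouse was left out. That of Lss turned negative with array weights (-0.35), the highest transcript (-0.35) and protein-coding transcripts (-0.017, chosen after seeing the data), and ranged from -0.47 to 0.46 without each mouse. Array weights called 2 of the 8 genes lower (Sqle and Srebf2), 3 other sterol enzymes lower and 1 member transcript. Leaving out each mouse gave 0 to 1 for each of these counts, the 1 in each case without PN98 m35.

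Over all genes, 381 were called higher and 476 lower (55.5% lower). Nuclear scaling gave 565 and 275 (32.7% lower), median of ratios 770 and 462 (37.5% lower), a mean of at least 5 FPKM 277 and 271, array weights 1146 and 3485, and leaving out each mouse 100 to 676 and 112 to 2842, the highest counts without m35. The 326 called transcripts became 552 with median of ratios, 717 with a pseudocount of 1, 117 with a mean above 2 at both ages, 1588 with array weights and 47 to 1802 without each mouse. The causes were not tested. No paired analysis was possible because the labels give the ages no shared replicate numbers. Depth is unknown, and 4 mice per age limit the precision.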

Other observations

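Genes of fatty acid synthesis varied between mice with the 8 cholesterol genes. Of 12 listed, 11 were tested and 6 were higher and 5 lower at PN98 by value, beside 67.0% of all genes lower. The median log2 fold change was 0.00. The 5 lower genes and the median include Scd1, whose PN98 values are listed as 0 and which was the 1 gene of the list that limma called. Acly, which makes cytosolic acetyl-CoA for both pathways, was listed at 973, 1287, 573 and 316 FPKM in PN21 m1, m49, m138 and m145, and at 53.3, 491, 500.3 and 912 FPKM in PN98 m35, m106, m114 and m125. Mouse m49 was the highest and m35 the lowest of all mice. The log2 fold change of Acly was -1.06 ± 0.86 (SE; limma, adjusted p = 0.445) and -0.18 without m35, and that of Scd2 was 1.17 ± 0.51 (SE; limma, adjusted p = 0.183). After the age means were subtracted, r to the mean profile of the 8 genes was above 0.8 in 7 of the 11, with 0.89 for Acly and 0.97 for Scd2, over 8 mice and without a p-value, beside 2.47% of all genes. Without m49 and m35 it was above 0.8 in 4 of the 11, Acly, Scd2, Pnpla3 and Acss2, with Acacb at 0.27, beside 1.05% of all genes. Scd1 was listed at 976 to 2935 FPKM at PN21 and at 0 in 4 of 4 PN98 mice. In m106 and m125 4 of 13 protein-coding genes of the mitochondrial genome were also listed at 0, so a listed 0 may not be a measurement and no fold is given for Scd1.

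Outside the lists, the genes whose log2 values were most like the mean profile of the 8 genes over the 8 mice were Mrpl48 (r = 0.96), Gm16537 (0.95), Pomt1 (0.95), Garnl3 (0.95) and Cmpk1 (0.94). After subtraction of the age means they included Ldha-ps (0.98), Ralgapa2 (0.98), Mrpl48 (0.97) and Acat3 (0.97). Without m49 and m35 the first measure ranged from 0.69 for Cmpk1 to 0.90 for Garnl3, and the second from 0.95 for Ralgapa2 to 0.98 for Ldha-ps. Ldha-ps is a pseudogene and Acat3 is closely related to Acat2, so the split of reads between such copies is uncertain.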
